A study of Caenorhabditis elegans with 2 samples.

Results

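Binding of the nuclear hormone receptor NHR-21 at the peptide genes of Caenorhabditis elegans was described for 141 genes out of 19973 protein-coding genes on the 6 nuclear chromosomes. The genes were chosen by symbol alone. They comprised 31 flp genes, 71 nlp genes and 39 insulin-like genes, the last counting ins genes together with daf-28. The ChIP-seq data came from whole L2 larvae of pooled sexes of strain OP361, which carries the unc-119(tm4063) mutation and the integrated transgene wgIs361. The samples are described as immunoprecipitations of an eGFP fusion of NHR-21, although the antibody label names nhr-21 itself. There were 2 biological replicates, with fragments of 150 to 350 bp. Because whole animals were used, the lists do not tell in which cells an interval arose, and the tagged protein came from a transgene.

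The flp genes encode precursors of FMRFamide-like peptides, and the nlp genes encode a mixed group of other neuropeptide-like proteins. Proprotein convertases and carboxypeptidases cut such precursors into short peptides, which are packed into dense core vesicles and act mostly on G protein-coupled receptors. The nlp name also covers short glycine-rich peptides of the epidermis with antimicrobial activity, such as nlp-29, which infection and wounding are known to induce. Insulin-like peptides act through the receptor DAF-2, as agonists or antagonists, and steer the larva between reproductive growth and the dauer stage.

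For each library and for both replicates pooled, a list of 30000 candidate intervals was available, each with a signal value from the authors' peak caller. A further list held the 3647 optimal peaks, the pooled intervals that passed a reproducibility threshold. Optimal peaks had pooled signals from 52.2 to 1244, and the pooled candidates reached down to 9.85. The candidate lists ended at a fixed length, so their weakest entries are not a level of enrichment. A gene was counted as having an interval when a summit lay between 1000 bp upstream and 250 bp downstream of an annotated 5′ end. A gene's value in a list is that of the strongest such interval, which need not be at the same position in each list. Signals are described within a list, and ranks count from the strongest interval of that list.

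Of the 141 peptide genes, 8 had an optimal peak in the promoter window (5.67%, 95% Wilson interval 2.9 to 10.8%), beside 11.6% of all protein-coding genes. They were nlp-24, nlp-27, nlp-29, nlp-31, nlp-34 and nlp-35 in the nlp family and ins-18 and ins-39 among the insulin-like genes. No flp gene had one. These genes were reached by 9 optimal peaks, since nlp-24 and nlp-29 each had a pair of overlapping peaks and nlp-31 and nlp-34 shared a single peak. No noncoding gene lay within 250 bp of any of the 9 summits.

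The bases around the summits of 6 of these peaks are shown because they are the stretches to which the binding values below refer. Each run is the plus strand of ce11 and holds the summit base with 50 bp on either side. Capitals mark words of 6 bases on either strand: the repeat GAGAGA, the E-box CACGTG, the receptor half-site AGGTCA and its variant AAGTCA, the GC-rich CCGCCC, the GATA factor site TGATAA and the TATA-like TATAAA. Added after values were seen were the shorter GATAA, which TGATAA contains, and the word GCGCAGGG. GATAA can also overlap AAGTCA, but not in the stretches shown.
ins-39 (chrX:1345009-1345109): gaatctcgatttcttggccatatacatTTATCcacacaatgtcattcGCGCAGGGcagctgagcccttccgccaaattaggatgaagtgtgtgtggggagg
nlp-31 and nlp-34 (chrV:3980012-3980112): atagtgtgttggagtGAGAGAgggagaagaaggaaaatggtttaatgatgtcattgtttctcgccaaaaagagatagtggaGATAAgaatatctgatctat
nlp-24, upstream peak (chrV:11616136-11616236): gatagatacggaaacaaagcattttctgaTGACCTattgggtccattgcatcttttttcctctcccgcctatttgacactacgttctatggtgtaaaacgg
nlp-29, upstream peak (chrV:3984343-3984443): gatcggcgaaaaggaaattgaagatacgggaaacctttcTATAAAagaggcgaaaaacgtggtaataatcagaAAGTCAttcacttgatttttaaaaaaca
nlp-35 (chrIV:9518728-9518828): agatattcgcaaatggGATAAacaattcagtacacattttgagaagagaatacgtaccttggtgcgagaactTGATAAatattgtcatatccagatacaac
nlp-27 (chrV:3989193-3989293): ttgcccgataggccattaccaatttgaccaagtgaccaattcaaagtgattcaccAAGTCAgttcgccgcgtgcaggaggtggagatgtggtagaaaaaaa

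The strongest interval at any of the peptide genes lay upstream of ins-39, an insulin-like gene of the X chromosome. The optimal peak at chrX:1344908-1345198 had its summit in intergenic sequence, 638 bp upstream of the 5′ end, in no other gene's window. Its signal was 182.4 in replicate 1 and 248.8 in replicate 2, at ranks 65 and 75. In the pooled list it had a signal of 424.9 at rank 74. It therefore stood among the strongest intervals of all 3 lists, far above every other peptide gene in each of them. The stretch printed above holds GCGCAGGG near its centre. This word forms the core of a motif known from recruitment sites of the dosage compensation complex on X. It occurred in the summit stretch of 16 of 814 optimal peaks on X (1.97%) and of 2 of 2833 on autosomes (0.0706%), and it was looked for after the ins-39 value was seen.

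The second insulin-like gene with a peak, ins-18, encodes a peptide known as an antagonist of DAF-2. Its optimal peak lay on chromosome I, in intergenic sequence 767 bp upstream of the 5′ end, and had a pooled signal of 52.36 at rank 3632. This was close to the end of the optimal list, and neither replicate placed an ins-18 interval among its strongest 3647. The signal was 21.42 (rank 4226) in replicate 1 and 29.44 (rank 4057) in replicate 2.

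**Figure D1:**
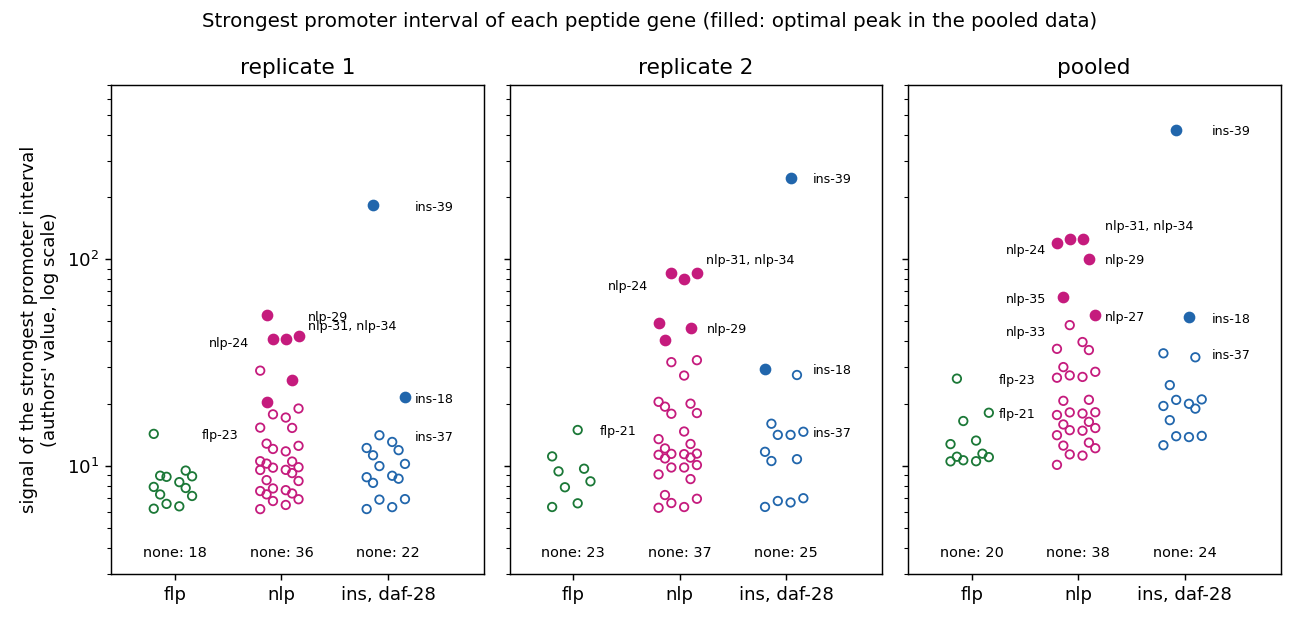
Signal of the strongest interval in the promoter window of each peptide gene, by family, in replicate 1, replicate 2 and the pooled list (log scale; 1 point per gene, filled where the gene had an optimal peak, with the number of genes without an interval below). ins-39 lies highest in all 3 lists at 182.4, 248.8 and 424.9, and all flp points lie below 30.

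Most of the bound nlp genes belonged to 1 cluster of short antimicrobial peptide genes on chromosome V. In it nlp-34, nlp-31, nlp-30, nlp-29, nlp-28 and nlp-27 follow each other within 10.9 kb, and 4 of these 6 genes had an optimal peak. The peak at chrV:3980009-3980145 had its summit 7 bp inside the annotated 5′ end of nlp-31, within the 5′ UTR. The same summit lay 928 bp upstream of nlp-34, which is transcribed in the opposite direction, so it counted for both genes. Its signal was 41.3 (rank 1518) in replicate 1, 86.05 (rank 799) in replicate 2 and 126.0 (rank 1003) in the pooled list. Both replicates placed it well within their strongest 3647 intervals.

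At nlp-29, a well studied antimicrobial peptide gene of the worm epidermis, a pair of optimal peaks overlapped the start of the gene. The stronger, at chrV:3984198-3984587, had its summit 32 bp upstream of the 5′ end. Its signal was 53.59 (rank 991) in replicate 1, 46.64 (rank 2203) in replicate 2 and 100.9 (rank 1471) in the pooled list. The weaker pooled peak, with its summit 171 bp downstream in an intron, had a signal of 66.17 at rank 2682. Its nearest counterparts in the replicates had signals of 22.84 (rank 3838) and 22.23 (rank 5784), outside the strongest 3647 of either list. The replicates therefore shared the upstream summit and not the intronic one at that depth of the lists.

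At nlp-27, another gene of the cluster, the replicates differed in rank. The optimal peak at chrV:3989048-3989437 had its summit 135 bp upstream of the 5′ end and a pooled signal of 53.52 at rank 3532. The signal in the window was 20.32 (rank 4575) in replicate 1 and 49.04 (rank 2047) in replicate 2. Only replicate 2 placed it among its strongest 3647 intervals.

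A further optimal peak of the cluster lay between nlp-31 and nlp-30, at chrV:3980572-3980830, with a pooled signal of 117.1 at rank 1154. Its summit was 1222 bp upstream of nlp-30 and so just outside the promoter window. The interval nearest to the nlp-30 start in the replicate 2 list, 208 bp downstream, had a signal of 27.35 at rank 4459, and replicate 1 had no interval in that window. The pooled counterpart, with a signal of 44.01 at rank 4494, had its summit just past the downstream edge of the nlp-30 window. At nlp-28 the pooled candidate had a signal of 10.10 at rank 29226. Across the 18 kb around nlp-29, the pooled list held 14 intervals, 5 of them optimal. Genes of such a cluster can resemble each other, so the uniqueness of the bases under the peaks was counted. Between 96.6 and 100% of all stretches of 36 bases under the cluster's optimal peaks occurred once in the genome. Neither the read length nor the handling of repeated reads by the authors is given in the labels or files used.

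**Figure D2:**
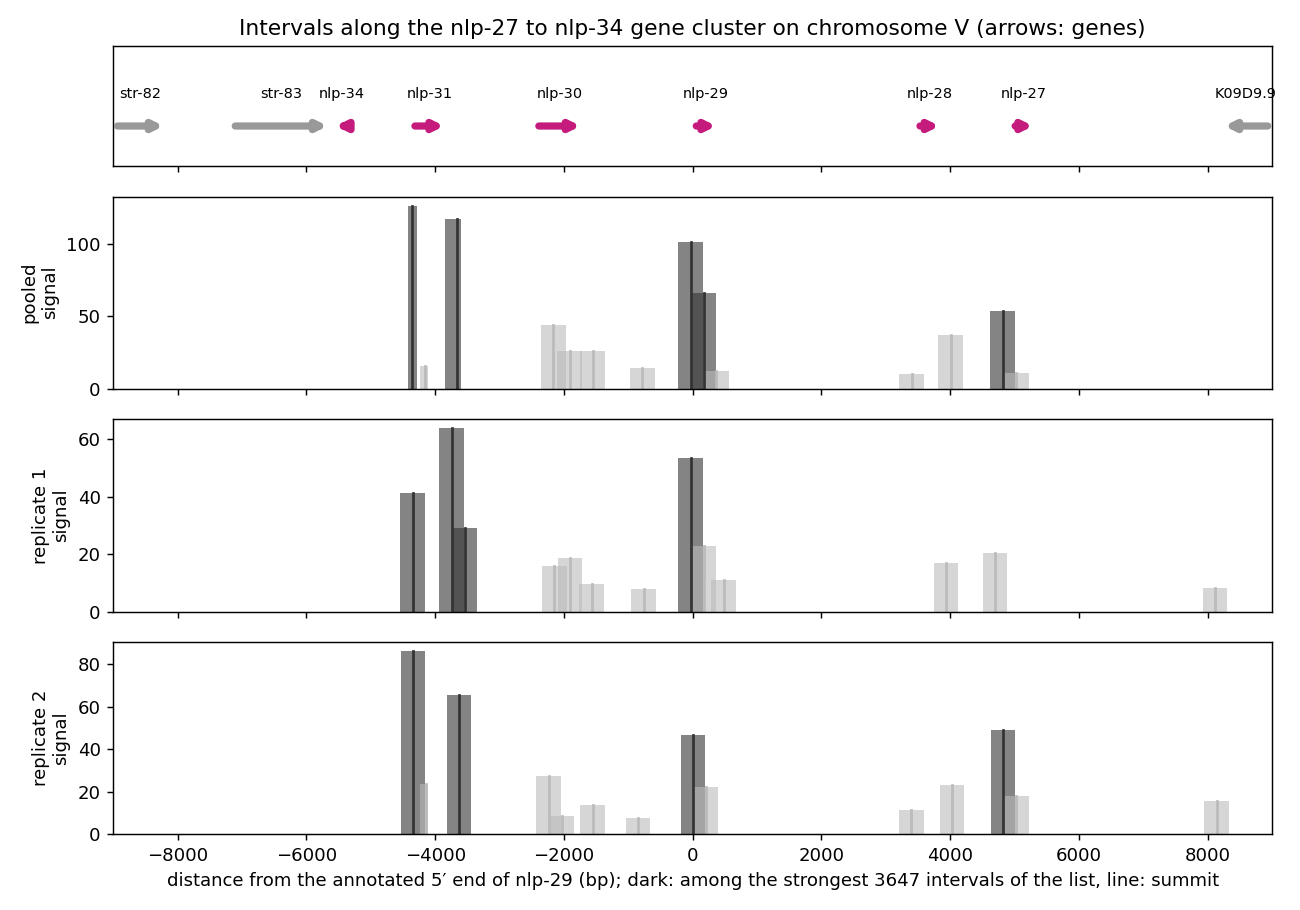
Intervals along the chromosome V cluster, as distance in bp from the 5′ end of nlp-29, with gene arrows on top and signal (authors' value) in the pooled list, replicate 1 and replicate 2 below. Dark blocks are among the strongest 3647 intervals of their list; they stand at nlp-31, between nlp-31 and nlp-30, and at nlp-29 in all 3 lists, and at nlp-27 in the pooled and replicate 2 lists.

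Elsewhere, nlp-24 on chromosome V, whose precursor is also rich in glycine, had the second strongest nlp peak. The peak at chrV:11616096-11616278 had its summit 190 bp upstream of the 5′ end. Its signal was 42.67 (rank 1439) in replicate 1, 80.21 (rank 924) in replicate 2 and 120.2 (rank 1104) in the pooled list. A second, overlapping optimal peak with a signal of 60.7 had its summit 14 bp inside the gene, in coding sequence. At nlp-35 on chromosome IV, the optimal peak at chrIV:9518583-9518972 had its summit in an intron, 148 bp downstream of the 5′ end. The nlp-35 signal was 25.97 (rank 3182) in replicate 1, 40.68 (rank 2652) in replicate 2 and 65.45 (rank 2718) in the pooled list. Counting only the strongest peak of each gene, that of nlp-35 was the weakest nlp peak that both replicates ranked among their strongest 3647.

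The precursors, translated from the annotated coding sequences, separate the families by composition. Of the 31 flp precursors, 29 held at least 1 copy of arginine, phenylalanine and glycine followed by lysine or arginine, the signature of an amidated RF peptide, with up to 9 copies in flp-13. No nlp or insulin-like precursor held one. All 39 insulin-like precursors had at least 6 cysteines, the residues that form the disulphide bonds of the insulin fold. Among the nlp precursors, 10 had at least 20% glycine, from 26.4% in nlp-25 to 41.2% in nlp-24. This cut was set after the binding values were seen, and the genes are nlp-24 to nlp-33 without a gap.

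All 10 glycine-rich nlp genes had a promoter interval in at least 1 of the lists, beside 53.5% of all protein-coding genes, and 4 had an optimal peak, beside 11.6%. All of these 4 but nlp-24 are neighbours in the chromosome V cluster. Of the 61 other nlp genes, 35 had an interval in some list, near the share of 53.5%, and 2, nlp-34 and nlp-35, had an optimal peak. The precursor of nlp-34, which shares its peak with nlp-31, had 18.6% glycine, just under the cut. The highest glycine share of the 61, 19.2%, was at a gene without an optimal peak. The glycine-rich genes without an optimal peak included nlp-33, the closest of all peptide genes below the threshold. Its pooled candidate lay 79 bp upstream, with a signal of 48.01 at rank 4034. The nlp-33 signal was 28.89 (rank 2694) in replicate 1 and 31.76 (rank 3670) in replicate 2. The nearest optimal summit lay 572 bp from the nlp-33 5′ end, outside the window, and nlp-33 gained an optimal peak when any overlap with the window counted. The others are named here after their values were seen, and their pooled signals were 30.06 at nlp-26, 17.61 at nlp-32, 15.23 at nlp-25 and 10.10 at nlp-28, with no pooled candidate at nlp-30. The glycine-rich genes thus ran from the strongest nlp interval, that of nlp-31, down to the weakest candidates. No test was made of this division.

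Weaker intervals were present in all 3 families. A pooled candidate was present in the promoter window of 59 of the 141 genes (41.8%, 34 to 50.1%), close to the 41.2% of all protein-coding genes. By family, 33 of 71 nlp genes (46.5%, 35.4 to 58.0%), 15 of 39 insulin-like genes (38.5%, 24.9 to 54.1%) and 11 of 31 flp genes (35.5%, 21.1 to 53.1%) had one, and these intervals overlap widely. Of the genes with a candidate, 8 of 59 carried an optimal peak (13.6%, 7.03 to 24.5%), beside 28.1% of all such genes. The share with a candidate was thus near the background in this setting, and the share with an optimal peak was lower, which was not tested. With 500 bp upstream, 38 genes had a candidate beside 33.7% of all genes, and with only candidates of a q-value of at most 0.05, 21 genes beside 22.9%. In both settings the candidate share, too, was below the background. It was above the background with 2000 bp upstream (78 genes, beside 49.3%) and with any overlap of interval and window (70, beside 44.4%). The same held with the nearest gene only (57, beside 35.6%) and without replicate 2 (65, beside 41.9%). With the outermost 5′ end only (55, beside 38.9%) and without replicate 1 (56, beside 42%) it was near the background. The direction thus changed with the setting. The counts without a replicate are those of the other replicate's candidate list. Another 59 genes had an interval in no list (41.8%), beside 46.5% of all protein-coding genes.

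**Figure D3:**
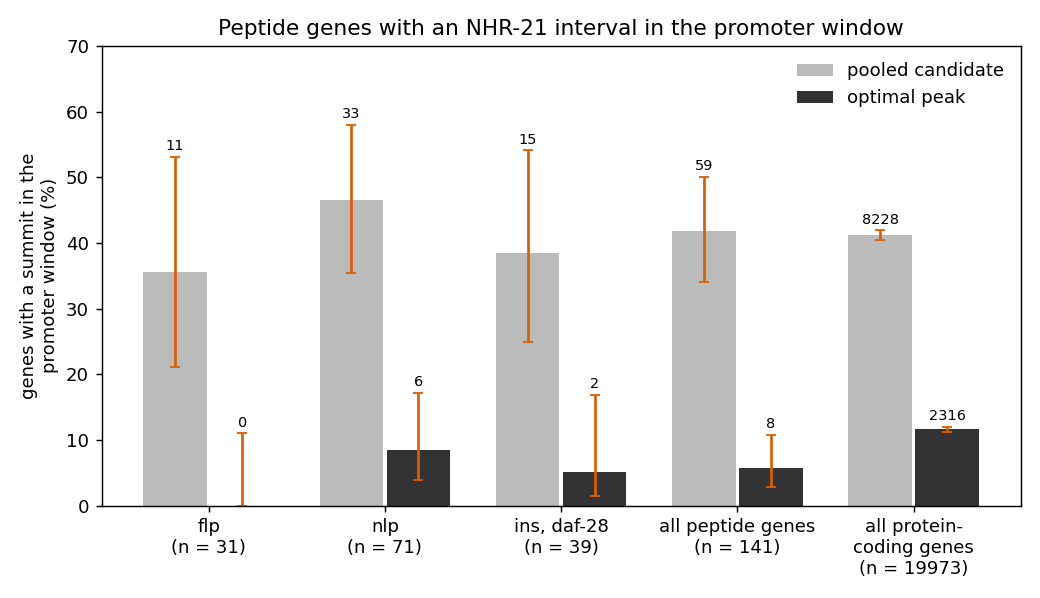
Share of genes with a summit in the promoter window (%), for pooled candidates and optimal peaks, with 95% Wilson intervals and the number of genes above each bar. Candidates reach 35.5% of flp, 46.5% of nlp and 38.5% of insulin-like genes, and optimal peaks 0, 8.45 and 5.13%, beside 41.2 and 11.6% of all protein-coding genes.

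Optimal peaks by family were found at 6 of 71 nlp genes (8.45%, 3.93 to 17.2%), 2 of 39 insulin-like genes (5.13%, 1.42 to 16.9%) and 0 of 31 flp genes. The Wilson interval of the flp genes ran from 0 to 11%, and a count of 0 (a limit of 3 counts) allows a share of up to 9.68%. The background of 11.6% lay just above both limits, and it fell below them with a window of 500 bp upstream (9.15%), with the nearest gene only (8.95%) and in the stronger 50% of optimal peaks (6.24%). The Wilson intervals of the families overlap, so these counts do not order them. Strong intervals in both replicates, meaning an interval among the strongest 3647 of replicate 1 that overlapped one of replicate 2, were found at 6 peptide genes (4.26%, 1.96 to 8.97%), beside 8.98% of all genes. They were ins-39, nlp-24, nlp-29, nlp-31, nlp-34 and nlp-35. Taken singly, replicate 1 had such an interval at 7 peptide genes, beside 11.2% of all genes, and replicate 2 at 8, beside 11.3%.

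The flp genes had the lowest median candidate signal of the 3 families. The 11 pooled flp candidates had signals from 10.5 to 26.4 with a median of 11.4, beside a median of 27.5 over all genes with a candidate. The highest, 366 bp upstream of flp-23, had a signal of 14.27 in replicate 1 and of 26.43 in the pooled list, while replicate 2 had no interval there. The next, 222 bp upstream of flp-21, which encodes a ligand of the receptor NPR-1, had a pooled signal of 18.06. The flp-21 signal was 14.90 in replicate 2, and replicate 1 had no interval there. The following candidates were those of flp-2 (pooled signal 16.47) and flp-4 (13.24). Only 4 flp genes had an interval in both replicates (12.9%, 5.13 to 28.9%), beside 31.8% of all protein-coding genes. The corresponding counts were 24 nlp genes (33.8%) and 11 insulin-like genes (28.2%). Most flp genes with an interval thus had it in a single replicate. The median rank of the pooled flp candidates was 25560 of 30000, beside 8160 over all genes with a candidate. The best rank was 8630, at flp-23. Both flp-23 and flp-21 were above the median signal of all pooled candidates, 17.4.

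Among the insulin-like genes without an optimal peak, the highest pooled signals were at a few genes of chromosome II. The candidate 54 bp upstream of ins-37 had a signal of 14.05 in replicate 1, 14.61 in replicate 2 and 35.05 in the pooled list. At ins-14 the signal was 9.964 in replicate 1, 27.52 in replicate 2 and 33.53 in the pooled list. At ins-4, an agonist of DAF-2, the summit was at -990 bp in replicate 2 (signal 14.11) and the pooled list (24.59), while the strongest interval of replicate 1, at -302 bp (11.24), was another one. The values in replicate 1, replicate 2 and the pooled list at ins-15 were 8.654, 15.98 and 20.96. At daf-28, the agonist that keeps larvae out of dauer, replicate 1 had no interval in the window. The daf-28 signal was 6.96 in replicate 2 and 13.90 in the pooled list, near the floor of both. No list had an interval at ins-6, another agonist. Both daf-28 and ins-6 were named after their values were seen. The insulin-like genes thus held the strongest interval of the peptide genes, at ins-39, and otherwise signals below the optimal range or at its edge.

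In the nlp family, the strongest candidates below the optimal range after nlp-33 were those of nlp-4, nlp-59 and nlp-76. The nlp-4 candidate lay 85 bp upstream on chromosome I, with a signal of 17.12 in replicate 1, 19.99 in replicate 2 and 39.75 in the pooled list. At nlp-59 the signal was 18.93, 18 and 36.85 in the same order. The replicates differed most at nlp-76, with 10.52 at rank 13139 in replicate 1 and 32.47 at rank 3564 in replicate 2. Of the 51 peptide genes with a candidate and no optimal peak, 7 ranked among the next 3647 pooled candidates, of which 5 were nlp and 2 insulin-like genes. The same share over all protein-coding genes was not computed, so these counts only describe the members.

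**Figure D4:**
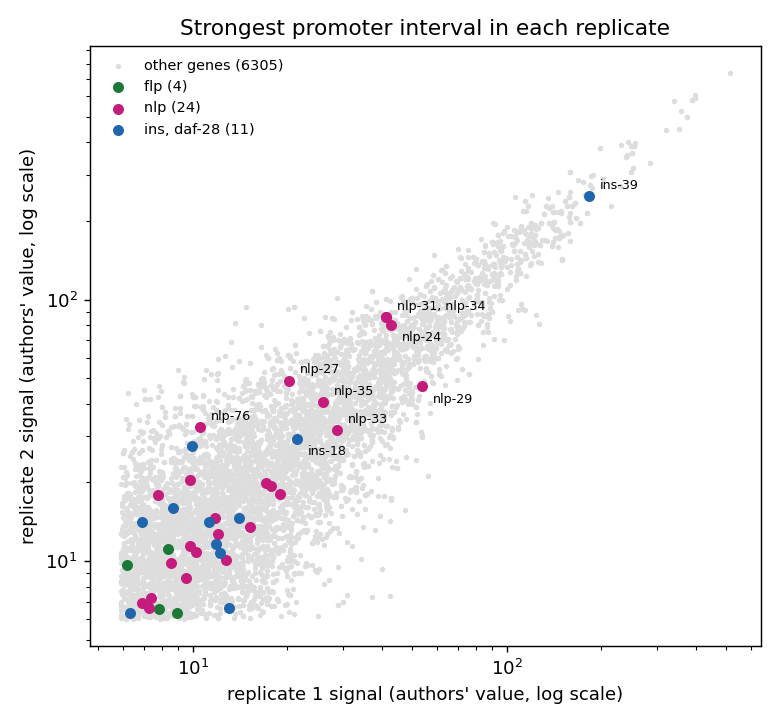
Signal of the strongest promoter interval in replicate 1 (horizontal) and replicate 2 (vertical), both on log scales, for every gene with an interval in both lists; grey points are the 6305 other genes. ins-39 lies at 182.4 and 248.8 on its own among the 39 peptide genes shown, while the 4 flp genes lie among the lowest signals.

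Peptide genes with a peak were unevenly spread over the chromosomes. Of the 8 genes, 5 were on chromosome V, where 24 peptide genes lie (20.8%, beside 7.97% of all protein-coding genes of V). The X chromosome carries 34 peptide genes, 13 of them flp genes, and 1 had a peak (2.94%, beside 13% of all genes of X). Chromosomes II and III had none among 28 and 17 peptide genes, beside 10.9% and 16.1% of all protein-coding genes of these chromosomes. The 4 cluster genes count separately here although they are neighbours and 2 of them share a summit.

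The side of the 5′ end on which summits lay depends on the window, which held 1000 bp upstream and only 250 bp downstream. Such a window favours upstream summits by its shape. The strongest pooled summit was upstream at 49 of 59 peptide genes, beside 7000 of 8228 in the whole gene set. A majority was thus upstream in both sets, and no difference was tested. The median position at the peptide genes was -332 bp, beside -240 bp over all genes with a candidate. The medians were -366 bp for flp, -310 bp for nlp and -357 bp for insulin-like genes. Within the annotated gene span, an optimal summit was found at 4 genes, nlp-24, nlp-29, nlp-31 and nlp-35, all nlp. The nearest optimal summit to a 5′ end was at a median distance of 17982 bp for flp, 12949 bp for nlp and 21088 bp for insulin-like genes. Neither the gene-span count nor this distance was computed over all protein-coding genes, so both only describe the members.

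In base composition, the 9 summit stretches had a median GC content of 36.6% (32.7 to 49.5%), beside 44.6% over all optimal peaks and 36.6% over the pooled candidates. The highest was at ins-39. AAGTCA, a word that resembles the half-site of nuclear receptors, was present in 3 of the 9 stretches, those of nlp-27 and both nlp-29 peaks, beside 3.92% of all optimal peaks. AGGTCA, the classical half-site, was present in 1, upstream of nlp-24, beside 3.76%. The GAGAGA repeat was present in 1, at nlp-31, beside 24.3%. The 6-base site of GATA factors was present in 1, at nlp-35, beside 11.6%. The shorter GATAA, added after the epidermal genes were seen, was present in 4 beside 23.4%. TATAAA was present in 1, upstream of nlp-29, beside 5.92%, while the E-box (7.21% of all optimal peaks) and the GC-rich word (5.51%) were present in none. With 9 stretches, several of them neighbours, these counts are descriptions of letters only.

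Genes that make, release or receive the peptides were looked at by lists, beside 41.2% of all protein-coding genes with a candidate and 11.6% with an optimal peak. Among 9 genes for peptide processing, 7 had a candidate (77.8%) and 1 an optimal peak (11.1%), egl-21, the carboxypeptidase that trims peptides after cleavage. The egl-21 peak, 139 bp upstream, had a signal of 30.47 in replicate 1, 36.2 in replicate 2 and 61.08 in the pooled list. Among 10 genes for dense core vesicles found by symbol, 7 had a candidate and 3 an optimal peak (30%, beside 11.6% of all genes). They were unc-108, the Rab2 GTPase (pooled signal 165.4), rund-1, its effector in vesicle maturation (83.91), and ida-1, a vesicle membrane protein related to tyrosine phosphatases (60.84). Of 105 peptide receptor genes, 30 had a candidate (28.6%, beside 41.2%) and 1, npr-23, an optimal peak (0.952%, beside 11.6%), with a pooled signal of 60.6. The npr-23 signal was 12.08 at rank 10494 in replicate 1 and 45.23 at rank 2291 in replicate 2.

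In the insulin pathway, 7 of 10 genes had a candidate (beside 41.2% of all genes) and 3 an optimal peak (30%, beside 11.6%). They were the kinase gene akt-2 (pooled signal 150.2), the receptor gene daf-2 (64.2) and the FOXO factor gene daf-16 (58.2), with akt-2 among the strongest 3647 of both replicates. Of 7 other peptide genes outside the flp, nlp and ins names, 1 had a candidate and none an optimal peak. The caenacin genes, cnc, which encode epidermal antimicrobial peptides related to those of the nlp-29 cluster, were added after the nlp values were seen. Of 11 cnc genes, 6 had a candidate (54.5%, beside 41.2%) and 2 an optimal peak (18.2%, beside 11.6%), cnc-3 and cnc-2, neighbours on chromosome V. The cnc-3 signal was 19.06 in replicate 1, 53.69 in replicate 2 and 72.02 in the pooled list. The values at cnc-2 were 23.13, 31.01 and 55.98 in the same order. No caenacin gene had an interval among the strongest 3647 of both replicates.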

How the data were processed

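Peak lists from 2 biological replicates of 1 group were used. The authors derived each list from ChIP and control alignments, per the deposited text listing. Neither the aligner nor the peak caller, nor the threshold on reproducibility, is named in the labels or files used. Each interval carries the authors' peak signal value and a −log10 q-value, both as deposited. Read totals are not in the lists, so depth is unknown, and the intervals around shares cover counting error of genes only.

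Only the ce11 lists were used. All interval ends lay within the WBcel235 chromosomes. Gene models came from Ensembl release 115 and bases from the RefSeq WBcel235 genome. Where windows overlapped, a summit was counted for every gene concerned. Precursors were translated from the longest annotated coding sequence.

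The members and lists were chosen with earlier results of these data known. Named genes were the members with an optimal peak, or with an interval among the strongest 3647 of either replicate, the 4 strongest other members of each family, and pathway genes with an optimal peak. Named outside this rule, after their values were seen, were daf-28, ins-6, the other glycine-rich nlp genes, the cnc genes, and nlp-12 and nlp-71, which a wider window gained. With 1 group and no control sample analysed, no comparison between conditions and no test was made. Shares carry 95% Wilson intervals (scipy 1.17.1). The window search, run in Python 3.11.15, was tested on simulated summits before use. Alternatives covered the window, the 5′ ends, the gene assignment, the threshold, the overlap rule and leaving out each replicate.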

Additional observations from a re-analysis of the deposited data

How the results depend on the processing

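Counts were recomputed under each alternative, and 77 of 97 recomputed values stayed within 1.5 times the value reported, or, for the median position, within 1 SD. With 500 bp upstream in place of 1000 bp, optimal peaks were found at 5 peptide genes, beside 9.15% of all genes, and at 0 insulin-like genes (ins-18, ins-39 and nlp-34 were lost), candidates at 38 genes, 7 of them flp and 9 insulin-like, beside 33.7%, and strong intervals of both replicates at 0 insulin-like genes, beside 7.05%. With 2000 bp, optimal peaks were found at 13 genes, beside 15% of all genes, 11 of them nlp (nlp-12, nlp-26, nlp-30, nlp-71 and nlp-76 were gained), and strong intervals of both replicates at 8 nlp genes, beside 11.7%. Peptide genes whose optimal summit lay in another gene's window numbered 2, and 0 and 5 under these windows. The 2 were nlp-31 and nlp-34, which share a summit. The same share over all protein-coding genes was not computed, so these counts only describe the members. When any overlap of a peak with the window counted, 9 genes had an optimal peak, beside 12.4% of all genes, with nlp-33 gained. In the stronger 50% of optimal peaks, 5 genes remained, 1 of them insulin-like, beside 6.24% of all genes. In the stronger 50% of both replicates' strongest intervals, 3 nlp genes remained, beside 4.92%. With a replicate left out, no optimal list was available. The counts for this setting equal those of the strongest intervals of the remaining replicate, reported above. They are therefore not a separate check of the optimal peaks, although they are among the 97 values. Without replicate 1 there were 8 genes, 7 of them nlp and 1 insulin-like, beside 11.3% of all genes. Compared with the optimal peaks, nlp-76 replaced ins-18. Without replicate 2 there were 7 genes, 6 of them nlp and 1 insulin-like, beside 11.2%. Here nlp-33 was gained and ins-18 and nlp-27 were lost. Candidates were found at 1 flp gene with a q-value of at most 0.05, beside 22.9% of all genes. The highest flp candidate count was 13, without replicate 2, beside 41.9% of all genes. It is the count in the replicate 1 candidate list. The flp count of optimal peaks and of strong intervals of both replicates was 0 under every alternative run. That count of 0 could rise only with 2000 bp upstream, with any overlap of the window or with a replicate left out. The alternatives that narrow the main setting fixed it at 0, and such values are among the 77. Restricting candidates to a deposited q-value of at most 0.05, chosen after seeing the data, left 21 genes (1 flp, 15 nlp, 5 insulin-like), beside 22.9% of all genes. The cause of these changes was not tested. No paired analysis was possible because there was 1 group. Read depth is unknown, so weak intervals may lie at the limit of either library.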
